A study of Mus musculus with 8 samples.

Results

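This report describes 6 genes that mark regulatory T cells, of the 17921 genes measured in single cells of mouse left lung grafts. They were chosen by name, though earlier results of these data were known. Foxp3 and Ikzf2 encode transcription factors, and Il2ra and Ctla4 encode surface receptors of interleukin-2 and of costimulation. Tnfrsf4 and Tnfrsf18 encode receptors of the tumor necrosis factor family. Grafts were taken 1 month after orthotopic left lung transplantation (LTx) into male C57BL/6 mice that received no immunosuppression. In 5 mice (B6→B6) donor and recipient were both C57BL/6 and the graft was a nonrejecting control. In 3 mice (HLA→B6) the donor was a C57BL/6 mouse with the human HLA-A2 transgene Tg(HLA-A2.1)1Enge, and the recipient was C57BL/6, a model of bronchiolitis obliterans syndrome (BOS). The recipients' ages were not given in the sources used here, and a graft holds cells of both donor and recipient, which were not told apart.

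Regulatory T cells are CD4 T cells that restrain other immune cells, and Foxp3 is the transcription factor that defines them in mice. They depend on interleukin-2, which they bind through the alpha chain CD25, the product of Il2ra, and they hold the co-inhibitory receptor CTLA-4 at high levels. Helios (Ikzf2), OX40 (Tnfrsf4) and GITR (Tnfrsf18) are also abundant on them, but activated conventional T cells induce CD25, CTLA-4, OX40 and GITR as well, so that Foxp3 alone among these genes is close to specific. In lung allografts these cells are studied for their part in tolerance.

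The table held 20778 cells in 11 labeled types, 5071 of them T cells. Libraries held 868 to 6544 cells and 1669076 to 12445769 unique molecular identifiers (UMIs, each counted as 1 RNA molecule), and the median T cell had 973.5 to 2600 UMIs, by library. The T cell label covered 2 of the study's clusters. In the 4117 cells of cluster 1, 75.9% had a UMI of Cd3e and 85.9% of Trbc2, 14.5% of Cd4 and 30.5% of Cd8a. The 954 cells of cluster 7 all came from B6→B6 mouse 4, and 46.8% of them had a UMI of Rag1 and 50.2% of Dntt, which act in the recombination of antigen receptor genes in lymphocyte precursors, against 0 of 4117 for Rag1 in cluster 1 (up to 0.0729% by 3 counts). Results are therefore given for all T cells and for cluster 1 alone. Between libraries, 1014 cells shared a cell barcode, 133 of them T cells, and 4 libraries (B6→B6 mice 1, 2 and 3 and HLA→B6 mouse 2) were linked by an excess of shared barcodes (adjusted p under 0.01). Each mouse is 1 sample throughout and cells were summed by mouse.

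The promoters of Ctla4, Tnfrsf4 and Tnfrsf18 are shown, since the T cell sums of these 3 members were higher in every HLA→B6 mouse than in every B6→B6 mouse. Each is 300 bases of the plus strand of GRCm38.p6 from RefSeq, from 250 bases before a gene start to 50 after, and 5 of the 6 members had an entry. These starts differ from those of the gene bodies given below. The Ctla4 window lies inside its gene body, and the Tnfrsf4 window ends before its gene body starts. Tnfrsf4 (chr4:156013445-156013744) and Tnfrsf18 (chr4:156026072-156026371) are neighbors with 9551 bases between the gene bodies on the same strand, and Ctla4 lies at chr1:60908775-60909074. The gene bodies are at chrX:7573644-7595245 for Foxp3, chr2:11642807-11693193 for Il2ra, chr1:60887000-60915832 for Ctla4, chr4:156013843-156016612 for Tnfrsf4 and chr4:156026164-156028895 for Tnfrsf18, all on the plus strand, and at chr1:69531214-69687245 on the minus strand for Ikzf2 (GENCODE vM21, GRCm38). Capitals mark the core GGAAAA, which reads TTTTCC on the other strand, that NFAT factors, which act downstream of the T cell receptor, recognize.
Ctla4: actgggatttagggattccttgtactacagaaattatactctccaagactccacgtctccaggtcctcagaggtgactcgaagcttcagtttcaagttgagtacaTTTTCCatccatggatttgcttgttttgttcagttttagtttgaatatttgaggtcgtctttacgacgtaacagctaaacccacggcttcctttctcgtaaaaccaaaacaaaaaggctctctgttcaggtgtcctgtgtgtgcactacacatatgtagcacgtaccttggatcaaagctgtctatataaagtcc
Tnfrsf4: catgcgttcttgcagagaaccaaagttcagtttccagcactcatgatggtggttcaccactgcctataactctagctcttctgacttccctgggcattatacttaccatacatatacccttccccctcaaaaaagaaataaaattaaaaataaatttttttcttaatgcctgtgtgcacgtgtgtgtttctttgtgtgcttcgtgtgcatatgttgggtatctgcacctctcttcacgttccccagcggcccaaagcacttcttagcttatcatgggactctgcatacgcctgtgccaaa
Tnfrsf18: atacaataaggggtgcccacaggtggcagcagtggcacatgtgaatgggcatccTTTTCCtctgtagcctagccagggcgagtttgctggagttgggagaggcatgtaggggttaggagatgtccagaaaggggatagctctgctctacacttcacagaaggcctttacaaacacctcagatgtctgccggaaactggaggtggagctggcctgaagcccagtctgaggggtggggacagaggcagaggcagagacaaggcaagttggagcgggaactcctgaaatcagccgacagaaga
The core occurred once in the windows of Ctla4 and Tnfrsf18 and in 1 of the 2 windows of Foxp3, and in 23.4% of the 32851 promoters of the same length. No member's window held the forkhead site TGTTTAC, which reads GTAAACA on the other strand and was found in 3.65% of all promoters, or the AP-1 site TGANTCA, which reads alike on both strands and was found in 7.81%. Such matches describe letters only and the last 2 counts say nothing of the factors.

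Across cell types, 5 of the 6 members were highest in T cells, and Ikzf2 was highest in mast cells. These levels are given in CPM, the UMIs of a gene scaled to a common total of the summed counts of a mouse, over mice with at least 10 cells of the type, and without a test, since the types were clustered on these counts. Foxp3 had 160 UMIs in all, 134 of them (83.8%) in T cells, where its level was 17.4 ± 8.76 CPM (mean ± SD, n = 8). A Foxp3 UMI was found in 92 T cells (1.81%, exact 95% CI 1.47% to 2.22%), and in 3 of 2286 B cells (0.131%, CI 0.0271% to 0.383%), a type that should lack it, at median depths of 1648 and 1597.5 UMIs. The myeloid label came next with 4.63 ± 5.56 CPM (n = 8), which overlapped T cells within the spread, and 11 of its 755 cells had a UMI (1.46%, CI 0.73% to 2.59%). Mast cells had none in 85 cells, which allows a share of up to 3.53%.

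Ikzf2, the transcription factor Helios, and Tnfrsf18, GITR, were the members least confined to T cells. Ikzf2 reached 224 ± 71.4 CPM in mast cells (n = 3 mice, 26 UMIs in all mast cells) and 140 ± 38.8 in T cells (n = 8), 2 levels within each other's spread, against 38.3 ± 22.6 in myeloid cells and lower levels elsewhere. Tnfrsf18 stood at 168.5 ± 70.1 CPM in T cells and 153 ± 27.5 in natural killer (NK) cells (n = 8 each), again within the spread, and then at 41.1 ± 29.1 in myeloid cells and 20.7 ± 6.66 in B cells. Of 1011 NK cells, 20.7% had a Tnfrsf18 UMI, as did 21.7% of T cells, at median depths of 1484 and 1648 UMIs. GITR is known on NK cells, and 0.407% of monocytes had a Tnfrsf18 UMI at the higher median depth of 2155.5.

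Il2ra, Ctla4 and Tnfrsf4 were highest in T cells and second in the myeloid label. Il2ra stood at 19.7 ± 8.20 CPM in T cells and 4.93 ± 5.94 in myeloid cells, and it was found in none of 1011 NK cells (up to 0.297%). Ctla4 stood at 64.9 ± 28.4 in T cells, 21.7 ± 19.2 in myeloid cells and 18.5 ± 9.12 in plasma cells (n = 2 mice, both HLA→B6), and the last 2 types did not differ beyond their spread. Tnfrsf4 stood at 107 ± 80.9 in T cells and 53.1 ± 63.0 in myeloid cells, whose ranges overlapped. In B cells, 0.306%, 0.569% and 0.263% of cells had a UMI of Il2ra, Ctla4 and Tnfrsf4, against 2.33%, 9.19% and 9.03% of T cells.

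**Figure D1:**
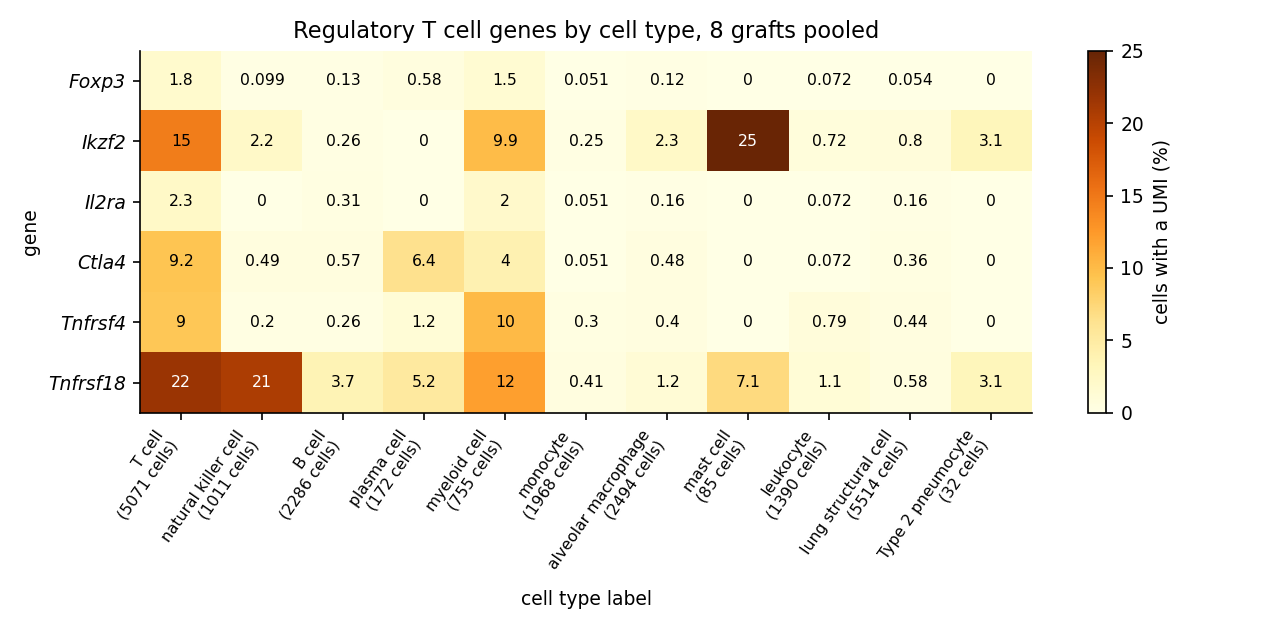
Share of cells with at least 1 UMI of each of the 6 genes (rows) in each of the 11 labeled cell types (columns), in percent of the cells of that type over all 8 mice. Foxp3 is at 1.81% in T cells, 1.46% in the myeloid label and under 0.6% elsewhere, Tnfrsf18 is near 21% in both T and NK cells, and Ikzf2 is highest in mast cells at 24.7%.

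Within the myeloid label most Foxp3, Ikzf2 and Ctla4 UMIs lay in cells with T cell markers, while Il2ra, Tnfrsf4 and Tnfrsf18 were found with and without them. T cell marker UMIs (Cd3d, Cd3e, Cd3g, Trac, Trbc1 or Trbc2) were found in 231 of its 755 cells, 134 of them from B6→B6 mouse 4, and these cells held 10 of the 11 cells with Foxp3, with 27.3% having an Ikzf2 UMI, 11.3% a Ctla4 UMI, 2.60% an Il2ra UMI, 12.55% a Tnfrsf4 UMI (82 of the 217 UMIs of the label) and 14.3% a Tnfrsf18 UMI. Mki67, a gene of dividing cells, was found in 49.8% of them and Rag1 in 49 cells, all of that mouse. The 524 myeloid cells without such a marker held 1 cell with Foxp3 (0.191%), and 2.29% had Ikzf2, 0.763% Ctla4, 1.72% Il2ra, 8.97% Tnfrsf4 and 11.1% Tnfrsf18. Of these 524, 81 cells had at least 3 of the 5 mature dendritic cell genes Fscn1, Ccl22, Ccr7, Il4i1 and Cacnb3, and they carried 122 of the 135 Tnfrsf4 UMIs. Tnfrsf4 was found in 36 of the 81 cells (44.4%), Tnfrsf18 in 24 (29.6%) and Il2ra in 8 (9.88%), with no Foxp3 or Ctla4 UMI, against 2.48%, 7.67% and 0.226% of the other 443 cells. The cells with Tnfrsf4 were 14 of 22, 19 of 38 and 1 of 3 in HLA→B6 mice 1 to 3, and 0 of 1, 0 of 4, 1 of 7, 1 of 4 and 0 of 2 in B6→B6 mice 1 to 5. This division was made after the values were seen and was not tested. Structural cells held a further subcluster of 136 cells that the study labeled T cells, in which Tnfrsf18 was found in 20 (14.7%), Ikzf2 in 15 (11.03%), Ctla4 in 10, Tnfrsf4 in 9, Il2ra in 5 and Foxp3 in none, and these cells are not counted among the T cells.

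The genes whose pattern over the 11 types was most like that of Foxp3, by Pearson correlation of log2(CPM + 1) of the summed types among 8752 ranked genes, were Aqp3 and Cd40lg (both r = 0.972), Tcrg-C4 (0.968), Trat1 (0.967) and Gzmk (0.965). Among the members Il2ra ranked 18 (0.939), Tnfrsf4 20 (0.936), Ctla4 34 (0.899), Tnfrsf18 241 (0.638) and Ikzf2 649 (0.509). The 11 points share libraries and differ in depth, so these values only describe the pattern.

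To ask whether the T cells of rejecting grafts differed in these genes, UMIs were summed over the T cells of each mouse. Tnfrsf4, OX40, a costimulatory receptor, was 3.24 times as high in HLA→B6 grafts by group means, and Ctla4 and Tnfrsf18 were 1.88 times as high each. For these 3 members, every HLA→B6 mouse stood above every B6→B6 mouse, as did 3.96% of the 7164 genes tested. Foxp3, Ikzf2 and Il2ra overlapped between the groups. In edgeR's quasi-likelihood test no member passed an adjusted p of 0.05, against 5 genes called higher among all tested (0.0698%). Of the 6 members 4 had an unadjusted p under 0.05, as had 534 of the 7164 genes, and DESeq2 called 1, Tnfrsf4. A lower level in the sum can come from fewer cells that transcribe a gene or from less RNA in each, and the shares of cells with a UMI are given beside it.

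Foxp3 stood at 34.2, 10.5, 21.7, 6.43 and 18.8 CPM in the T cells of B6→B6 mice 1 to 5 and at 21.7, 11.1 and 14.8 in HLA→B6 mice 1 to 3. The HLA→B6 mice lay inside the range of the controls. The means were 15.9 ± 5.38 in HLA→B6 (n = 3) and 18.3 ± 10.8 in B6→B6 (n = 5), with an exact permutation p of 0.821 (two-sided). T cells with a Foxp3 UMI numbered 7 of 179, 4 of 341, 13 of 426, 11 of 1470 and 5 of 147 in B6→B6 mice 1 to 5, and 33 of 1147, 15 of 1130 and 4 of 231 in HLA→B6 mice 1 to 3. With every cell thinned to 1000 UMIs and shallower cells left out, the shares were 1.45% ± 0.370 (n = 3) and 1.41% ± 0.649 (n = 5), a difference of 0.0377 percentage points (exact permutation p = 0.964). The sign of that difference changed under 11 alternatives, and with a mouse left out the difference ran from -0.141 to 0.239 percentage points. The missed threshold does not show that the shares were equal.

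Ikzf2 stood at 151, 90.3, 124, 131 and 115 CPM in B6→B6 mice 1 to 5 and at 213, 175 and 121 in HLA→B6 mice 1 to 3. The means of 169.8 ± 46.5 (n = 3) and 122 ± 22.3 (n = 5) overlapped (exact permutation p = 0.143). Its share of T cells at 1000 UMIs did not overlap, at 11.9% ± 2.20 against 7.71% ± 1.44 (exact permutation p = 0.0357, n = 3 and 5), the smallest p that 3 against 5 mice can give. Adjusted over the 6 members, this permutation p was 0.0714. In edgeR's test its log2 fold change was 0.45 ± 0.20 (SE, adjusted p = 0.653).

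Il2ra, which encodes the CD25 chain, was lower on average in HLA→B6 grafts. It stood at 34.2, 19.6, 26.0, 19.3 and 10.7 CPM in B6→B6 mice 1 to 5 and at 13.7, 10.2 and 23.3 in HLA→B6 mice 1 to 3. The groups overlapped, with means of 15.8 ± 6.79 (n = 3) and 22.0 ± 8.74 (n = 5) and an exact permutation p of 0.357. The log2 fold change in edgeR was -0.66 ± 0.37 (adjusted p = 0.793).

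Ctla4, the co-inhibitory receptor that competes with Cd28 for Cd80 and Cd86, stood at 65.6, 57.6, 61.8, 26.7 and 32.2 CPM in B6→B6 mice 1 to 5 and at 111.5, 93.9 and 69.95 in HLA→B6 mice 1 to 3. HLA→B6 mouse 3 lay just above the highest control. The means were 91.8 ± 20.8 (n = 3) and 48.8 ± 17.97 (n = 5; exact permutation p = 0.0357), and the log2 fold change in edgeR was 0.93 ± 0.28 (adjusted p = 0.328).

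Tnfrsf4 stood at 79.9, 66.8, 62.9, 35.6 and 45.6 CPM in B6→B6 mice 1 to 5 and at 279, 129 and 157 in HLA→B6 mice 1 to 3. HLA→B6 mouse 1 was far above the other two and the groups were well apart. The means were 188 ± 80.1 (n = 3) and 58.2 ± 17.6 (n = 5; exact permutation p = 0.0357), and the log2 fold change in edgeR was 1.70 ± 0.28 (adjusted p = 0.0632, and from 0.000242 to 0.241 over 18 alternatives, 8 of them past the threshold).

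Tnfrsf18 stood at 177, 122, 169, 84.6 and 80.5 CPM in B6→B6 mice 1 to 5 and at 280.0, 225 and 210 in HLA→B6 mice 1 to 3. All 3 HLA→B6 mice were higher than the controls, whose values were spread widely. The means were 238 ± 36.9 (n = 3) and 126.6 ± 45.4 (n = 5; exact permutation p = 0.0357), and the log2 fold change in edgeR was 0.89 ± 0.24 (adjusted p = 0.269). At 1000 UMIs per cell, the shares of Ctla4 (7.97% ± 1.35 against 4.24% ± 1.498) and Tnfrsf4 (9.27% ± 4.64 against 3.61% ± 0.686) did not overlap between groups either (exact permutation p = 0.0357 each, n = 3 and 5). Those of Tnfrsf18 did, at 17.3% ± 4.60 against 10.97% ± 3.89 (exact permutation p = 0.107). Adjusted over the 6 members, the exact permutation p of 0.0357 became 0.0714 for levels and shares alike. No member passed 0.05 by these tests, and the shares of Ikzf2, Ctla4 and Tnfrsf4 passed in none of 17 alternatives (lowest adjusted p 0.0536, exact tests). With so few mice, an adjusted p under 0.05 needs nearly all 6 members at the smallest p. With a mouse left out, even the unadjusted permutation p cannot fall below 0.05. These outcomes therefore do not show that the groups were alike. How many of all genes lay apart by shares was not counted.

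Without the cells of cluster 7, only B6→B6 mouse 4 changed. In cluster 7, Ikzf2 stood at 169.9 CPM, Il2ra at 19.0, Ctla4 at 11.6, Tnfrsf4 at 28.5 and Tnfrsf18 at 69.7. Those of the mouse became 12.1 CPM for Foxp3, 96.9 for Ikzf2, 19.6 for Il2ra, 40.05 for Ctla4, 41.9 for Tnfrsf4 and 97.8 for Tnfrsf18. Over cluster 1, 1 member, Tnfrsf4, was called higher, as were 26 of 7106 genes (0.366%), with a log2 fold change of 1.61 ± 0.23 (edgeR, adjusted p = 0.00641). It remained called when each of the 8 mice was left out, with log2 fold changes of 1.21 to 1.85 and adjusted p from 0.00599 to 0.0287. The other 5 members were not called by edgeR, with adjusted p from 0.0832 for Tnfrsf18 to 0.907 for Foxp3. DESeq2 called Tnfrsf18 beside Tnfrsf4 in cluster 1 (log2 fold change 0.80, adjusted p = 0.0276). Every HLA→B6 mouse exceeded every B6→B6 mouse for Ctla4, Tnfrsf4 and Tnfrsf18, as for 5.18% of genes.

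**Figure D2:**
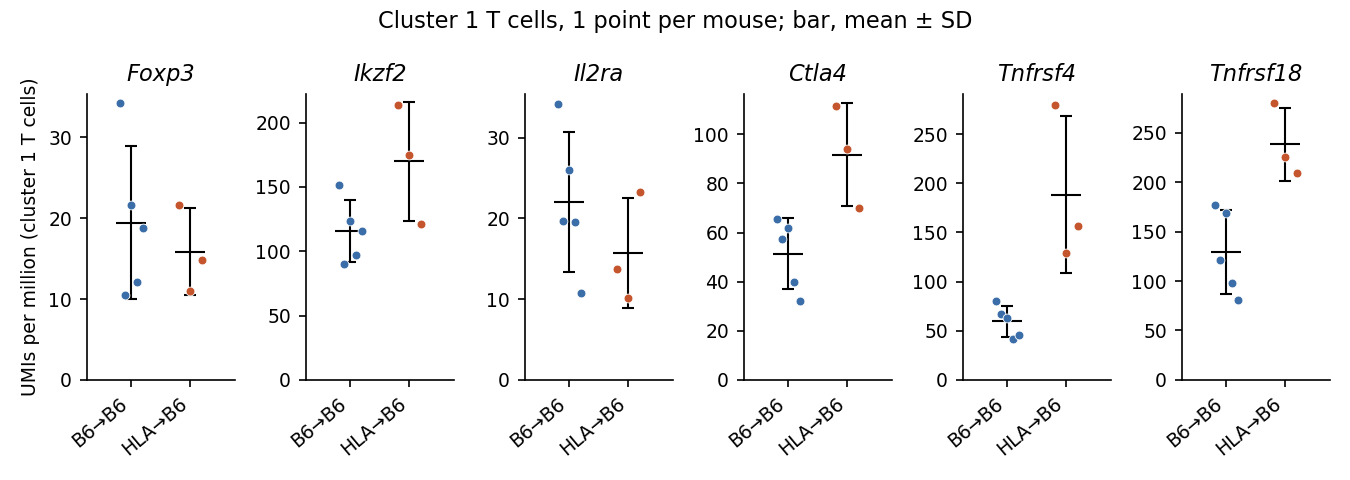
CPM in the summed cluster 1 T cells of each mouse for the 6 genes, with 1 point a mouse and the group mean ± SD beside the points (5 B6→B6 and 3 HLA→B6 mice, linear axes). The groups overlap for Foxp3, Ikzf2 and Il2ra and lie apart for Ctla4, Tnfrsf4 and Tnfrsf18, with Tnfrsf4 at 188 against 59.4 CPM on average.

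Markers of other cells in the summed cluster 1 T cells also differed between libraries, and their part in these results was not tested. Summed monocyte and macrophage markers ranged from 0 to 31.7 CPM in B6→B6 and from 16.4 to 113.5 in HLA→B6 mice, and plasma cell markers from 5.37 to 65.6 and from 48.4 to 117. Dendritic cell markers were at 0 to 1.31 and 2.98 to 4.24 CPM, and the mature dendritic genes, of which T cells express Ccr7, were lower in HLA→B6 mice at 157 to 273 against 305 to 456. NK cell markers ranged from 88.4 to 171 and from 125 to 199.7 and overlapped. Markers of group 2 innate lymphoid cells, which share Gata3, Il1rl1 and Rora with regulatory T cells, ranged from 150 to 394 and from 134 to 190 CPM. B cell markers were at 8.05 to 24.9 and 11.5 to 44.5. Gamma-delta T cell markers ranged from 61.7 to 656 in B6→B6 and from 117 to 163 in HLA→B6 mice, epithelial markers from 0 to 4963 and from 11.5 to 3084, and endothelial markers from 28.5 to 79.2 and from 60.3 to 117. Red cell markers reached 142 and 755, neutrophil markers 6.52 and 261.5, mast cell and basophil markers 14.9 and 8.48, and fibroblast markers 7.45 and 6.36 CPM, and of all listed markers Ms4a2 was the one at 0 in every mouse.

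The members were then compared in subsets of the cluster 1 T cells that no member defined. Cells with a Cd4 UMI and none of Cd8a or Cd8b1 made up 13.3% ± 3.77 of them in HLA→B6 (n = 3) and 13.4% ± 3.45 in B6→B6 mice (n = 5; exact permutation p = 0.929). Cells with Cd8a or Cd8b1 and no Cd4 made up 46.7% ± 9.93 and 35.5% ± 4.83 (p = 0.143 by the same exact permutation test). Cells with neither made up 39.4% ± 5.95 and 49.95% ± 2.89 (exact permutation p = 0.0714). A missing UMI does not show a missing transcript at this depth, and these classes were added after the data were seen. How many of all genes lay apart between groups was not counted in these classes.

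In the Cd4 class Tnfrsf4 and Tnfrsf18 rose, 2 of the 4 members tested, against 17 of 1605 genes (1.06%). Tnfrsf4 stood at 22.8, 175, 122, 96.2 and 168.5 CPM in B6→B6 mice 1 to 5 and at 626, 588 and 871 in HLA→B6 mice 1 to 3. Every HLA→B6 mouse stood more than 3 times above the highest control, and the log2 fold change was 2.39 ± 0.31 (edgeR, adjusted p = 0.000195, and up to 0.0347 over 11 alternatives). At 1000 UMIs, 31.5% ± 3.93 of Cd4 class cells had a Tnfrsf4 UMI in HLA→B6 and 7.53% ± 3.48 in B6→B6 mice. Tnfrsf18 stood at 159.5, 155, 234, 85.5 and 190 in B6→B6 mice 1 to 5 and at 461, 398 and 592 in HLA→B6 mice 1 to 3, again apart, with a log2 fold change of 1.48 ± 0.27 (edgeR, adjusted p = 0.0064, and past the threshold in 10 of 11 alternatives). Ctla4 stood at 91.1, 123, 103, 149.6 and 42.1 CPM in B6→B6 mice 1 to 5 and at 206, 155.6 and 244 in HLA→B6 mice 1 to 3. These did not overlap, though the nearest mice were close. Ctla4 had a log2 fold change of 0.74 ± 0.28 (adjusted p = 0.34) and Ikzf2 one of 0.72 (adjusted p = 0.537), both by edgeR. Foxp3 was found in 2.24% ± 0.682 (n = 3) and 2.57% ± 1.10 (n = 5) of Cd4 class cells at that depth (exact permutation p = 0.786), and the class held 24, 65, 54, 50 and 18 cells in the B6→B6 and 201, 116 and 28 in the HLA→B6 mice.

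In the Cd8 class none of the 3 members tested was called, against 77 of 4043 genes in either direction (1.9%). Ctla4 stood at 28.4, 14.6, 30.7, 18.6 and 17.4 CPM in B6→B6 mice 1 to 5 and at 65.8, 90.3 and 15.0 in HLA→B6 mice 1 to 3. HLA→B6 mouse 3 lay among the controls, and the log2 fold change was 1.40 ± 0.38 (edgeR, adjusted p = 0.0706). Ikzf2 had 0.90 ± 0.26 (adjusted p = 0.0946). With scaling by library totals in place of TMM both were called (edgeR, adjusted p = 0.035 and 0.0414), and over all alternatives adjusted p ran from 0.00181 to 0.541 for Ctla4 and from 0.006 to 0.688 for Ikzf2. All 3 had an unadjusted p under 0.05, as had 566 of the 4043 genes, and DESeq2 called none.

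In cells with neither, 1 of the 6 members tested rose, Tnfrsf4, against 3 of 4839 genes (0.062%). It stood at 82.2, 66.0, 87.9, 61.5 and 52.95 CPM in B6→B6 mice 1 to 5 and at 350.1, 178 and 157 in HLA→B6 mice 1 to 3. The groups were apart, with a log2 fold change of 1.71 ± 0.25 (edgeR, adjusted p = 0.0048, and up to 0.041 over 11 alternatives). Tnfrsf18 stood at 312 ± 17.8 (n = 3) against 160 ± 63.1 (n = 5) and did not pass (edgeR, adjusted p = 0.159). This class held 64 of the T cells with a Foxp3 UMI, more than the Cd4 class with 21. At 1000 UMIs Foxp3 was found in 3.07% ± 0.366 of it in HLA→B6 (n = 3) and 2.15% ± 0.851 in B6→B6 mice (n = 5). These shares overlapped (exact permutation p = 0.0714), and the levels were 32.9 ± 6.20 against 32.5 ± 20.5 CPM. Whether the group difference itself differed between the Cd4 and Cd8 classes was tested as an interaction with the mouse as a block. None of the 4 members tested passed, against 0.196% of 3565 genes, and Tnfrsf4 had a difference of 1.37 ± 0.55 on the log2 scale (edgeR, adjusted p = 0.753). Tnfrsf4 and Tnfrsf18 had an unadjusted p of 0.016 and 0.014, and 186 of the 3565 genes had one under 0.05, so a difference between the classes was not shown by this test, nor was it shown to be lacking.

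**Figure D3:**
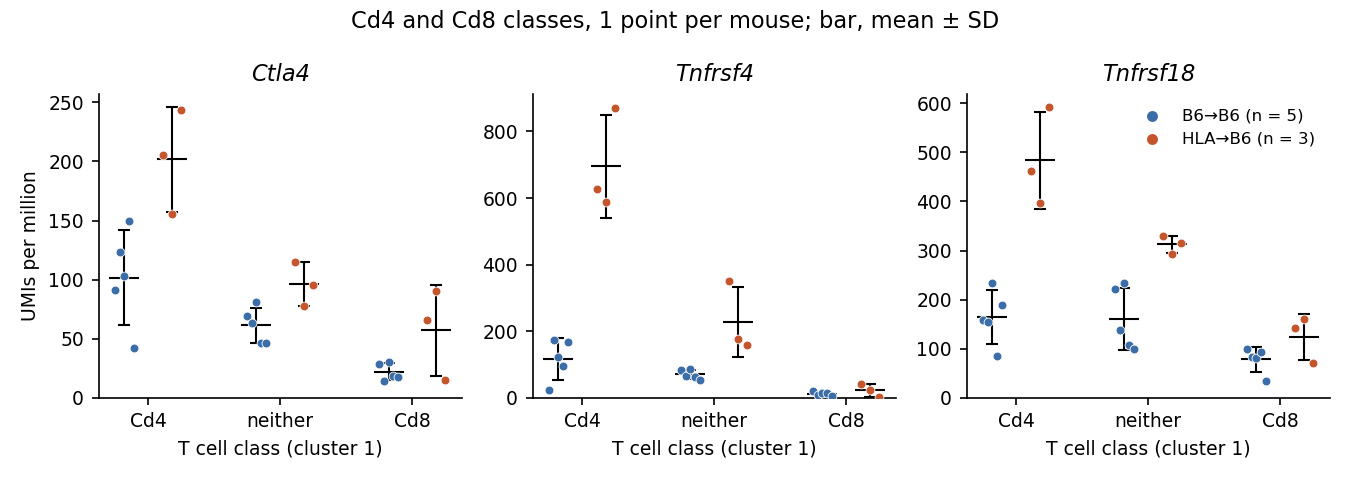
CPM of Ctla4, Tnfrsf4 and Tnfrsf18 in the summed cluster 1 T cells of each mouse with Cd4, with neither or with Cd8, with 1 point a mouse and the mean ± SD of 5 B6→B6 and 3 HLA→B6 mice. Tnfrsf4 in the Cd4 class averages 695 CPM in HLA→B6 and 117 in B6→B6 mice, and in the Cd8 class both groups are below 50.

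The 92 T cells with a Foxp3 UMI were examined next, and their label was checked against T cell markers. Cd3e was found in 82.6% of them, Trac in 84.8% and Trbc2 in 85.9%, Cd4 in 25% (23 cells), Cd8a in 3.26% and Cd8b1 in 6.52%, and Rag1 in none (up to 3.26%). They had a median of 1578 UMIs against 1650 in the other T cells, and 27 of them had 2 or more Foxp3 UMIs. All lay in cluster 1, since 0 of the 954 cells of cluster 7 had Foxp3 (up to 0.314%). Of the 92 cells, 6 shared a barcode with another library and 1 was marked as a doublet.

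The other 5 members were all found more often beside Foxp3. Ikzf2 was found in 73 of the 92 cells (79.3%) against 13.4% of the T cells without Foxp3, and Ctla4 in 47 cells (51.1%) against 8.41%. Tnfrsf4 was found in 55 cells (59.8%) against 8.09% and Tnfrsf18 in 57 (62.0%) against 21.0%. Il2ra was found in only 18 cells (19.6%) against 2.01%. Compared within mice at 1000 UMIs per cell, the share was higher beside Foxp3 for each of the 5 in 3 of 3 mice with at least 10 such cells, where the exact permutation of signs cannot give a p below 0.25. Ikzf2, for instance, averaged 73.2% ± 9.64 beside Foxp3 against 10.4% in those mice. With at least 3 cells, all 8 mice entered and each of the 5 members was higher beside Foxp3 in 8 of 8 (exact permutation p = 0.00781, n = 8, the smallest possible), with shares of 64.1% ± 17.96 against 7.97% ± 2.65 for Ikzf2.

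**Figure D4:**
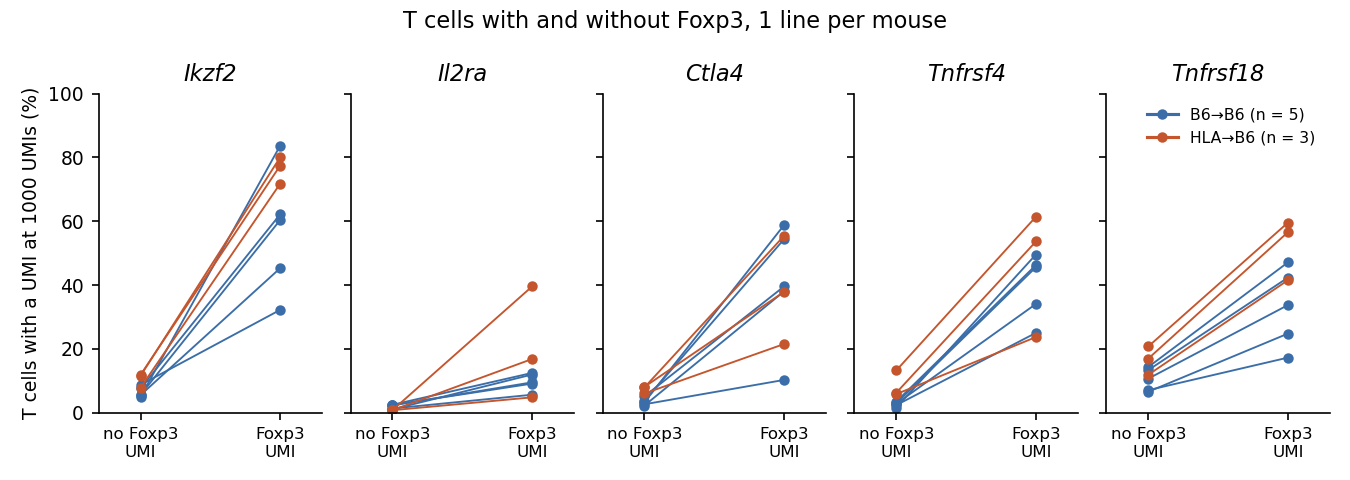
Share of T cells with a UMI of Ikzf2, Il2ra, Ctla4, Tnfrsf4 or Tnfrsf18, in percent at 1000 UMIs per cell, in cells without and with a Foxp3 UMI, with 1 line a mouse. For all 5 genes the lines rise in 8 of 8 mice, for Ikzf2 from 7.97% to 64.1% on average.

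Levels were compared in summed counts of the 4 mice with at least 10 cells in both classes (B6→B6 mice 3 and 4 and HLA→B6 mice 1 and 2, 72 against 4101 cells). The cells without Foxp3 include the 954 cells of cluster 7 of B6→B6 mouse 4. All 5 members were called higher in Foxp3-positive cells with the mouse as a block, in 4 of 4 mice each, against 34 of 5093 genes (0.668%). Ikzf2 stood at 1248 ± 359 CPM against 137 ± 36.9 (n = 4 mice), a log2 fold change of 2.79 ± 0.27 (edgeR, adjusted p = 8e-22). The TNF receptors Tnfrsf4 and Tnfrsf18 had log2 fold changes of 3.18 ± 0.29 and 1.89 ± 0.28 (edgeR, adjusted p = 5.38e-24 and 8.23e-09). Ctla4 and Il2ra had 2.95 ± 0.32 and 3.39 ± 0.51 (edgeR, adjusted p = 1.73e-17 and 8.84e-09). TMM scaling placed the median gene at -0.246 in these small sums and scaling by library totals at 0.135, a shift of more than 0.1, and it turned the split of called genes from 34 higher and 136 lower to 81 higher (1.59%) and 36 lower. The 5 members were called under both, with 3.2 for Ikzf2, 3.80 for Il2ra, 3.33 for Ctla4, 3.57 for Tnfrsf4 and 2.29 for Tnfrsf18 by library totals. In all 8 mice with at least 3 cells they were called too, from 1.84 for Tnfrsf18 to 3.52 for Tnfrsf4, against 70 of 2535 genes (2.76%). In the 4 mice with cluster 1 alone the 5 members were called as well, against 46 of 4976 genes called higher and 162 lower.

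Other genes moved with Foxp3. Of 33 further genes known from regulatory T cells 17 could be tested, and 7 rose and none fell, with a median log2 fold change of 1.40. Izumo1r, folate receptor 4, stood at 697.5 CPM against 94.7 (2.52 ± 0.30, edgeR adjusted p = 4.65e-14), and Itgae, the CD103 integrin chain of tissue lymphocytes, at 182 against 14.4 (3.23 ± 0.49, adjusted p = 2.01e-08). Capg (1.90), Icos (1.40), Tnfrsf1b (1.66), Klrg1 (3.08) and Tnfrsf9 (2.65) rose too, the last 2 in 3 of 4 mice. None of the 8 partners of the members that could be tested (receptor chains, kinases and ligands) was called. In simulated counts this comparison recovered 5.1% of 2-fold changes, so a change of that size could be missed. Of 8 resting T cell genes 2 fell, Tcf7 by 1.94 and Satb1 by 1.72 on the log2 scale, both transcription factors of naive T cells. The directions and calls of these 9 genes were kept with library totals. In cluster 1 alone 7 of 17 further regulatory T cell genes rose, and 4 of the 8 resting genes fell. Among the called falls were genes of cytotoxic, NK and gamma-delta cells with no UMI in the Foxp3-positive cells. Klrd1 was at least 12.6-fold lower, Klrc1 5.47-fold, Xcl1 3.76-fold, Tcrg-C2 3.49-fold and Trdc 3.43-fold at a floor of 3 UMIs over the group.

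Foxp3 was also tied to the Cd4 class. At 1000 UMIs it was found in 2.38% ± 1.02 of Cd4 class and 0.157% ± 0.324 of Cd8 class T cells (n = 8 mice, higher in 8 of 8, exact permutation of signs p = 0.00781). Ctla4 (10.5% against 3.74%) and Tnfrsf4 (16.5% against 1.16%) were higher in 8 of 8 mice with the same exact p. Tnfrsf18 was higher in 7 of 8 mice, at 20.1% against 7.84% (exact permutation p = 0.0156), and Ikzf2 in 7 of 8, at 10.8% against 5.49% (exact permutation p = 0.0313). Il2ra, at 1.22% against 0.444%, was higher in 4 of 8 mice (exact permutation p = 0.313). These 6 tests were made together. Adjusted for that, Foxp3, Ctla4, Tnfrsf4 and Tnfrsf18 passed 0.05 in 16 of 16 alternatives and Il2ra in none. Ikzf2 passed in only 6 of 16, with adjusted p from 0.01875 to 0.2188 by the exact permutation of signs. Of the 92 cells with Foxp3, 21 fell in the Cd4 class, 5 in the Cd8 class, 2 had both and 64 had neither.

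In single cluster 1 cells, 2365 (57.4%) had none of the 6 members, 1109 had 1, 381 had 2, 157 had 3, 77 had 4, 23 had 5 and 5 had all 6. The 5 cells with all 6 came from HLA→B6 mice. Pairs of members were compared with the number of cells that independence would give at 1000 UMIs per cell, mouse by mouse. Foxp3 was found with Il2ra 7.68 times as often as that, with Ikzf2 6.68 times, with Tnfrsf4 6.23 times, with Ctla4 6.06 times and with Tnfrsf18 3.05 times, each above independence in 8 of 8 mice. Of the 10 pairs without Foxp3, Ctla4 with Tnfrsf4 was highest at 3.25 (151 cells with both), and Il2ra with Ctla4 lowest at 1.43 (5 of 8 mice). Ctla4 with Tnfrsf4 stood at 3.15 also in cells without a Foxp3 UMI, while Il2ra with Ctla4 stood at 0.905 there (3 of 8 mice). These ratios describe sparse counts of cells that share a library, and no test was run on them.

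**Figure D5:**
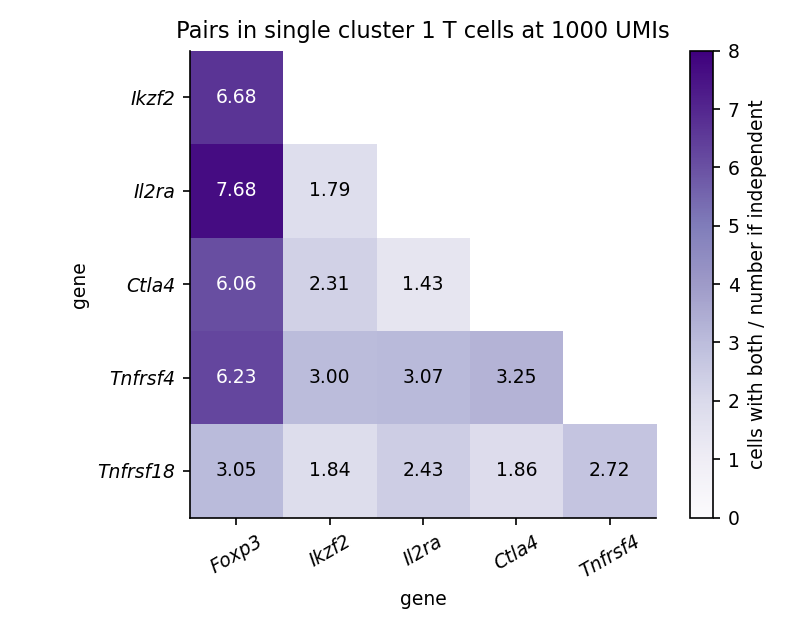
Ratio of the number of cluster 1 T cells with both genes of a pair to the number expected if they were independent, at 1000 UMIs per cell and summed over 8 mice, for the 15 pairs of the 6 genes. The pairs of Foxp3 with Il2ra, Ikzf2, Tnfrsf4 and Ctla4 lead at 6.06 to 7.68, Foxp3 with Tnfrsf18 (3.05) lies just below Ctla4 with Tnfrsf4 (3.25), and the lowest pair is Il2ra with Ctla4 (1.43).

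Most UMIs of the other members were nevertheless in cells where Foxp3 was not seen. Cells with Foxp3 held 15.9% of the Ikzf2 UMIs of T cells, 20.65% of Il2ra, 16.2% of Ctla4, 19.4% of Tnfrsf4 and 8.32% of Tnfrsf18. In cluster 1 they held 65 of 199 Tnfrsf4 UMIs (32.7%) in B6→B6 and 155 of 906 (17.1%) in HLA→B6 mice, and 50 of 179 Ctla4 UMIs (27.9%) and 56 of 465 (12.04%). Il2ra went the other way, with 9 of 76 UMIs (11.8%) and 23 of 61 (37.7%). These are sums over mice of unequal size and were not tested. Of cluster 1 cells with at least 3 of the 5 other members, 57 of 246 (23.2%) had Foxp3, and of those with at least 4, 25 of 73 (34.2%). Cells with at least 3 of the 6 were 5.59%, 3.23%, 4.46%, 1.74% and 2.72% of cluster 1 in B6→B6 mice 1 to 5 and 8.89%, 6.37% and 8.23% in HLA→B6 mice 1 to 3, unthinned.

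In cluster 1 T cells without a Foxp3 UMI, 3 of the 5 members were higher in HLA→B6 grafts, against 30 of 7027 genes (0.427%). Tnfrsf4 stood at 20.7, 45.05, 44.6, 37.8 and 36.2 CPM in B6→B6 mice 1 to 5 and at 234, 107.5 and 154 in HLA→B6 mice 1 to 3. The groups were well apart, and the log2 fold change was 2.00 ± 0.25 (edgeR, adjusted p = 0.00271, and past the threshold in 11 of 11 alternatives). Ctla4 stood at 83.6 ± 16.3 (n = 3) against 37.3 ± 5.53 (n = 5), with 1.08 ± 0.17 (edgeR, adjusted p = 0.0111, past it in 8 of 11). Tnfrsf18 stood at 226 ± 27.4 against 117.5 ± 32.3, with 0.86 ± 0.17 (edgeR, adjusted p = 0.0326), a call kept in only 3 of 11 alternatives and lost with scaling by library totals (adjusted p = 0.0517, and up to 0.19 over the alternatives). Il2ra stood at 8.95 ± 1.77 against 19.6 ± 8.02, with -1.32 ± 0.36 (edgeR, adjusted p = 0.145). Since 65 of the 92 Foxp3-positive cells had a single Foxp3 UMI, a cell without one may still transcribe the gene.

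Within Foxp3-positive cells the groups could be compared in 2 against 2 mice. Tnfrsf4 stood at 722 and 304 CPM in B6→B6 mice 3 and 4 and at 1734 and 1967 in HLA→B6 mice 1 and 2. It was the 1 of 4 members called, against 5 of 387 genes (1.29%), with a log2 fold change of 1.75 ± 0.47 (edgeR, adjusted p = 0.0142). The other mice, with 4 to 7 cells each, stood at 1733, 1832 and 296 in B6→B6 mice 1, 2 and 5 and at 297 in HLA→B6 mouse 3, and with all 8 mice the log2 fold change was 0.67 ± 0.62 and 0 of 236 genes (0%) were called by edgeR, with 9 at an unadjusted p under 0.05 and none called by DESeq2 in the 4 mice. With library totals in the 4 mice the log2 fold change was as large, at 1.82 ± 0.45, but not called (edgeR, adjusted p = 0.214, the alternatives running from 0.00104 to 1). Without B6→B6 mouse 4, HLA→B6 mouse 1 or HLA→B6 mouse 2 it was 1.34, 1.85 and 1.72 and not called, but each of these fits left 1 mouse in an arm, assumed to vary like the other group. Ikzf2 (0.47), Ctla4 (0.20) and Tnfrsf18 (0.86) were not called.

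Among the wider lists, 2 of the 20 further regulatory T cell genes tested in all T cells were higher in HLA→B6 grafts and none lower, against 0.0698% of all genes called higher, with a median log2 fold change of 0.27 against -0.0161 over all genes. They were the inhibitory receptors Lag3, at 253 ± 182 (n = 3) against 20.1 ± 19.1 (n = 5; edgeR, adjusted p = 0.0425), and Pdcd1, PD-1, at 274.5 ± 133 against 31.3 ± 21.5 (edgeR, adjusted p = 0.0402), both also known from activated and exhausted T cells. None of the 9 partners tested was called, with Cd28 at -0.60 (adjusted p = 0.402), Il2rb at 0.70 (adjusted p = 0.586) and Il2rg at -0.28 (adjusted p = 0.767) in the same fit by edgeR. None of the 8 resting genes was called, with a median of -0.75.

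The ligands of the members were sparse or lay in other cells. Tnfsf4, the OX40 ligand, had 12 UMIs in T cells and 7 in myeloid cells, and Tnfsf18, the GITR ligand, had 7 in structural cells and 1 in a B cell. The CTLA-4 ligand Cd86 was spread over alveolar macrophages (431 UMIs), myeloid cells (271), monocytes (215) and B cells (193). In alveolar macrophages it rose from 19.6 ± 10.3 (n = 5) to 55.5 ± 20.4 CPM (n = 3), a log2 fold change of 1.97 ± 0.41 (edgeR, adjusted p = 0.0141). Il2rg, the shared cytokine receptor chain, rose there too, by 1.55 ± 0.30 on the log2 scale (edgeR, adjusted p = 0.0127). These 2 were the partners called of 6 tested, against 369 of 5798 genes called higher in this type (6.36%).

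Outside T cells no difference between groups was called for any member. Enough UMIs for a test were found for 5 combinations of member and type, in NK cells, B cells and the myeloid label, and none of the members could be tested in monocytes, alveolar macrophages, the leukocyte label or structural cells. In NK cells, where 0% of 2987 genes were called by edgeR and 97 had an unadjusted p under 0.05, Tnfrsf18 stood at 120.6, 160.0, 161.3, 167.3 and 115.9 CPM in B6→B6 mice 1 to 5 and at 136.7, 200 and 161.6 in HLA→B6 mice 1 to 3. The groups overlapped (log2 fold change 0.15 ± 0.22, edgeR adjusted p = 0.998), and the difference was not tested against that of T cells. In B cells Tnfrsf18 stood at 24.8 ± 7.32 against 18.3 ± 5.58 (edgeR, adjusted p = 1, with 0.117% of 6001 genes called). In myeloid cells Tnfrsf4 stood at 0, 6.48, 47.8, 23.7 and 27.4 CPM in B6→B6 mice 1 to 5 and at 71.8, 197.4 and 50.4 in HLA→B6 mice 1 to 3. Every HLA→B6 mouse was above the controls, the log2 fold change was 2.27 ± 0.59 and the adjusted p 0.261 by edgeR, with 0% of 4395 genes called and 215 at an unadjusted p under 0.05. Tnfrsf4 was called there when the filter on low counts was dropped. How many of all genes lay apart between groups in this label was not counted. The label holds cells with T cell markers and mature dendritic cells, as given above, and their part in this difference was not tested.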

How the data were processed

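Single cells of 8 lung grafts, 10000 loaded per graft, were profiled by 10x Genomics 3′ RNA-seq. The deposited values are whole UMI counts, not normalized, per gene and cell, which the authors made with Cell Ranger on mm10 (GRCm38), leaving out barcodes under 200 UMIs and genes in fewer than 3 cells. The authors corrected ambient RNA with SoupX, but the sources used here do not state if the deposited counts precede it. Clusters (Seurat) and cell type labels (clustifyr with Tabula Muris) are the authors' own. Counts of 3′ tags do not compare levels between genes.

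Counts were summed per mouse and cell class, with at least 10 cells, and tested across all genes with edgeR 4.0.16 (quasi-likelihood, TMM, filterByExpr with a minimum count of 10, Benjamini-Hochberg adjusted p under 0.05), in R 4.3.3, and with DESeq2 1.42.0 as an alternative. Shares of cells with a UMI were set to 1000 UMIs per cell by expected value, with shallower cells left out, and compared by exact permutation tests over mice, all two-sided, with SciPy 1.17.1. Intervals (95%, Clopper-Pearson) and limits from 3 counts cover counting error only. Nothing in the labels gives batches. Doublets were kept in the main results; Scrublet (expected rate 0.06) marked 256 cells (1.23%). TMM scaling shifted the small sums of Foxp3-positive cells, so scaling by library totals was added after seeing this. In simulated counts for T cells between groups (6897 genes), 42.9% of 2-fold and 93.7% of 4-fold changes were recovered. For Foxp3-positive against other T cells (4786 genes) 5.1% of 2-fold and 43.6% of 4-fold changes were recovered by TMM, with 14.8% of calls false. By library totals 6.12% and 47.9% were recovered, with 7.27% of calls false.

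The 6 genes, the gene lists and the tests were chosen with earlier results of these data known. All members were named; of the lists of partners, other regulatory T cell genes and resting genes, the called genes in order of p and the partners of members were named, up to 10 a comparison, and of other genes only examples among the 10 largest called rises and 5 largest called falls. Alternatives included other filters, thinning depths, cell minimums, barcode and doublet removal, and each mouse left out.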

Additional observations from a re-analysis of the deposited data

Results flagged for a closer look

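In each of 60 groups of 5 B6→B6 mice (a member, a T cell class and a measure) the highest or lowest mouse was compared with the others by Dixon's ratio, and 3 stood apart. Chance flags about 1 in 20 groups, which is as many as were found. Il2ra in the Cd4 class of cluster 1 was 46.81 CPM in B6→B6 mouse 3, against 0 to 12.95 in the other 4, and its share at 1000 UMIs per cell was 5.664% there, against 0% to 1.072%. Both rest on the same 5 UMIs in 54 cells. Tnfrsf18 in the Cd8 class was 34.81 CPM in B6→B6 mouse 5, against 81.93 to 99.37 in the others, from 6 UMIs in 56 cells.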

How the results depend on the processing

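Depth limits the Foxp3 results, with 160 Foxp3 UMIs in all and 4 to 33 Foxp3-positive T cells a mouse. Genes called in all T cells (5) became 37 with DESeq2, 61 without the filter on low counts, 39 with the barcode-linked set of libraries as a term and 30 in cluster 1 alone, and 0 to 24 with 1 mouse left out (24 without B6→B6 mouse 4 and 0 without B6→B6 mouse 1 or 5 or HLA→B6 mouse 1 or 2). The count of members called there (0) became 1, Tnfrsf4, under each of those settings, and also with cells of at least 500 UMIs and without cells that share a barcode, and 0 to 1 with a mouse left out (1 without B6→B6 mouse 4). With the replicate number as a block 39 genes and 1 member, Tnfrsf4, were called. The labels do not state that the numbers pair the mice, and same-numbered deviations correlated at 0.11, 0.18 and -0.24. The names of single cells number HLA→B6 mice 1 to 3 as 2, 3 and 5, and by those numbers the correlations were 0.024, 0.2 and 0.3. The block used the first numbering, and so few correlations cannot show whether mice were paired.

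The Foxp3 share difference (0.0377 percentage points) became -0.095 at 500 UMIs, -0.5215 at 2000 UMIs, -0.478 without thinning, -0.199 with the replicate block, -0.00378 with the linked set, -0.0654 in cluster 1 and -0.227 among Cd4 class cells, and -0.141 to 0.239 with a mouse left out. The Foxp3 log2 fold change in T cells (-0.06) turned to 0.10 without shared barcodes and 0.017 with the linked set, and ran from -0.42 to 0.22 with a mouse left out. Genes called beside Foxp3 (170) became 103 with DESeq2, 78 without the mouse block and 46 to 205 with a mouse left out (46 without HLA→B6 mouse 2), while the 5 members were called in every setting except Il2ra with DESeq2, which gave it no adjusted p. Members detected more often beside Foxp3 in single cells (0, for 3 mice) became 5 with at least 3 cells. Within Foxp3-positive cells, genes called between groups (6) became 0 with DESeq2, library totals or at least 3 cells, 2 without shared barcodes and 1 to 35 with a mouse left out (35 without B6→B6 mouse 3), and the 1 member called became 0 in those 4 settings and without the filter, and 0 to 1 with a mouse left out. Ctla4 there (0.20) turned to -0.14 with at least 3 cells and ran from -0.24 to 0.67 with a mouse left out (-0.0039 without B6→B6 mouse 4). Calls in Cd4, Cd8 and neither classes (3) became 5 with library totals and 3 to 5 with a mouse left out (5 without HLA→B6 mouse 3). Members called in other cell types (0) became 1 without the filter. Foxp3 in cells with neither ran from -0.0477 (without B6→B6 mouse 2) to 0.51 with a mouse left out, and the Ikzf2 interaction from -0.77 to 0.36 (without HLA→B6 mouse 2). The causes were not tested. Of 862 values under alternatives, 751 kept their direction and their side of the threshold or stayed near the main value. Most of these, 621, were values of single members. For the main counts and the Foxp3 share difference 130 did so, while 42 moved further and 11 changed sign. At least 20 cells or 2 Foxp3 UMIs left too few mice for the Foxp3-positive tests, as did the replicate block between groups and thinning to 2000 UMIs for co-detection.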
